A study of Homo sapiens with 8 samples.

Results

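The genes described here are 10 components of autophagy, chosen by name with earlier results of these data known. They were read as the rows of the deposited count table whose Ensembl identifiers map to those symbols. All 10 were found among the 60617 genes of the table, each in 1 row, and all 10 were among the 17693 genes that passed the filter on low counts. They are the cargo receptors SQSTM1, NBR1, OPTN and TAX1BP1, the ATG8 genes MAP1LC3B, GABARAPL1 and GABARAPL2, the early autophagy genes ULK1 and WIPI1, and the transcription factor gene TFEB. The data are RNA sequencing counts of polyadenylated RNA in 8 libraries of MCF-10A, an established line of human mammary epithelial cells that do not form tumours. Cells labelled Empty or NeuT were left untreated or were exposed for 12 h to 1 µM JG-98, an inhibitor of Hsp70 chaperones, with 2 libraries in each of the 4 groups. All groups grew in the same medium with horse serum, epidermal growth factor, hydrocortisone, insulin and cholera toxin. The labels do not say what the NeuT cells carry, which promoter drives it, or whether either line was 1 clone. They also do not say whether the 2 libraries of a group came from separate cultures, so p-values measure the spread between these libraries, which may be technical. The purpose given for the series was to compare the sensitivity of transformed cells to JG-98.

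Autophagy encloses cytoplasm in a membrane that grows around its cargo and then fuses with the lysosome. ULK1 is the kinase that starts the process, WIPI1 binds the phosphoinositide made on the new membrane, and ATG8 proteins are attached to that membrane through a lipid. Cargo receptors bind ubiquitin-tagged proteins or organelles at one end and ATG8 proteins at the other, and TFEB activates genes of autophagy and the lysosome. Damaged proteins held by Hsp70 and its cochaperone BAG3 are among the known cargo that SQSTM1 delivers. Messenger RNA levels do not measure autophagic flux, and several of these proteins, SQSTM1 and the lipid-bound ATG8 forms among them, are themselves degraded by it.

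The 250 bases before the start site of 3 ATG8 genes are shown because MAP1LC3B and GABARAPL1 rose in treated NeuT cells and GABARAPL2 was not called. They come from RefSeq (GRCh38.p14), which held a promoter for 10 of 10 genes, and read 5′ to 3′ on the plus strand. They lie at chr16:87392086-87392335, chr12:10212627-10212876 and chr16:75566129-75566378. The RefSeq start sites differ from the first bases of the genes as counted. The windows of MAP1LC3B and GABARAPL1 lie inside the gene spans given below. Capitals mark matches to the motifs named below.
MAP1LC3B: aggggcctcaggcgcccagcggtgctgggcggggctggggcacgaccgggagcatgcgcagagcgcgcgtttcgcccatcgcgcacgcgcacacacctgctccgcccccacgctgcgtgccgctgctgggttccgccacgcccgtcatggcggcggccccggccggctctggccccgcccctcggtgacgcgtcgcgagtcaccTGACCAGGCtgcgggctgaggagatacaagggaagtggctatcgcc
GABARAPL1: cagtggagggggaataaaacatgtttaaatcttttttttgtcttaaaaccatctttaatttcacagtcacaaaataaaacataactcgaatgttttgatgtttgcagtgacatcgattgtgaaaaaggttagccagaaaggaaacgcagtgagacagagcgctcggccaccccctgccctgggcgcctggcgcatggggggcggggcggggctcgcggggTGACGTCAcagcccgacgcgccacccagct
GABARAPL2: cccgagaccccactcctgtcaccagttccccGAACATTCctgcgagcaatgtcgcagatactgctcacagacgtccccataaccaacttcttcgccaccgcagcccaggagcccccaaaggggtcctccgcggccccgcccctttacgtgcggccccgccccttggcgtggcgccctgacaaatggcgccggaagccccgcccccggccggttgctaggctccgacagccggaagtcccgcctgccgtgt
The windows were searched on both strands for 6 motifs, where N is any base. These were CACGTG, the E-box at the core of the CLEAR element that TFEB binds, the full CLEAR element, a palindrome that contains it, and TGATGNAA, the composite element bound by ATF4. The others were TGACNNNGC, the core of the antioxidant response element, GAANNTTC, the core of the heat shock element, and TGACGTCA, the cyclic AMP response element, which was added after the sequences were read. MAP1LC3B held TGACCAGGC, a match to the antioxidant core, with its first base at -46 from the start site. GABARAPL1 held TGACGTCA at -30, and GABARAPL2 held GAACATTC at -219. The other 7 windows held none of the 6 motifs. Among 35116 promoter windows of the same length, 10.9% held the antioxidant core, 1.65% the cyclic AMP response element and 5.78% the heat shock core. CACGTG was in 6.34%, the full CLEAR element in 0.308% and TGATGNAA in 3.14%. A match describes the letters in these windows and does not show that a factor binds there.

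Library totals were 55050996 to 56861971 counts, except for Empty treated replicate 1 with 37341458. The 2 treated NeuT libraries differed most from each other, with a median absolute log2 difference of 0.156 across genes against 0.0944 to 0.130 in the other groups. Keratin genes KRT5, KRT6A, KRT14 and KRT17 were each at 2510 CPM or more on average in every group, where CPM is the count of a gene scaled to a common library size. All 10 markers of breast epithelium (KRT5, KRT6A, KRT14, KRT17, KRT18, TP63, CDH1, EPCAM, ITGB4 and LAMB3) passed the filter, and they summed to 24500 to 25700 CPM in Empty and 32400 to 33800 CPM in NeuT. TP63 was low, at 2.74 CPM in untreated Empty and 7.49 CPM in untreated NeuT, and EPCAM was at 203 and 97.0 CPM, lower in NeuT against the sum. Of 8 markers of fibroblasts, endothelium and leukocytes, 6 passed the filter, and the 8 summed to 20.2 to 23.6 CPM in Empty and 76.4 to 92.4 CPM in NeuT. DCN accounted for most of that gap, at 3.38 CPM in untreated Empty and 72.6 CPM in untreated NeuT, whereas the leukocyte genes PTPRC and CD68 had at most 4 counts in any library. Their part in the differences between the lines below was not tested.

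Between them the 10 genes spanned a wide range of levels. Levels of different genes are compared per kilobase of exon (RPKM, scaled to library size and gene length). SQSTM1, which encodes the ubiquitin-binding receptor p62, was the most abundant, with a mean over the groups of 48.5 RPKM, higher than 94.6% of tested genes. MAP1LC3B, the gene for the most widely studied LC3 protein, followed with 37.8 RPKM and GABARAPL2 with 22.7 RPKM. Each of these stood above the next in 8 of 8 libraries. OPTN (15.5 RPKM), TAX1BP1 (14.0 RPKM) and NBR1 (13.2 RPKM) lay close together. OPTN was below TAX1BP1 in 3 Empty libraries and above it in the other 5 libraries, and TAX1BP1 was above NBR1 in 5 of 8, so their order depended on the line or library. GABARAPL1 had 6.53 RPKM, ULK1 5.38 RPKM and WIPI1 4.70 RPKM. ULK1 was below WIPI1 in all 4 Empty libraries and above it in all 4 NeuT libraries. TFEB had the lowest mean, at 3.33 RPKM, still above 54.7% of tested genes. It was above ULK1 in Empty untreated replicate 1 (4.176 against 3.955 RPKM) and Empty treated replicate 1 (3.852 against 3.844 RPKM). Depth did not limit any of the 10 genes, since their fewest counts in a library were the 617 of WIPI1 in Empty treated replicate 1.

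**Figure D1:**
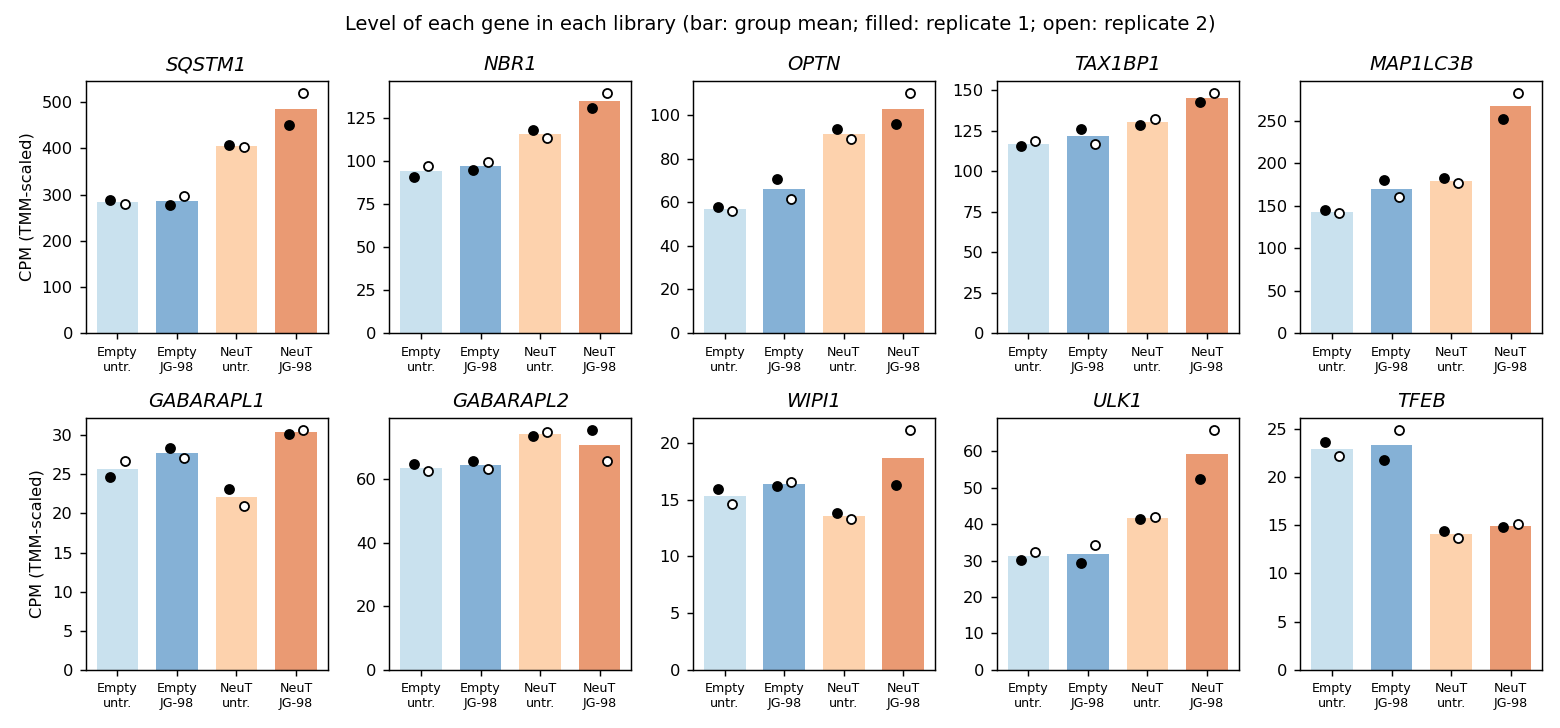
Level of the 10 genes in each library, in TMM-scaled CPM (vertical axes start at 0 and differ between panels); bars are means of 2 libraries, filled points replicate 1 and open points replicate 2. SQSTM1, NBR1, OPTN, TAX1BP1, MAP1LC3B, GABARAPL1 and ULK1 are highest in both treated NeuT libraries. TFEB is lower in all 4 NeuT libraries than in all 4 Empty libraries.

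With JG-98, 5 of the 10 genes rose in NeuT cells, with log2 fold changes of 0.26 to 0.57, and none fell. These were the ATG8 genes MAP1LC3B and GABARAPL1, the kinase gene ULK1, WIPI1 and the receptor gene SQSTM1. Across all tested genes, 2.01% were called higher in this comparison, 1.01% lower and 3.01% in either direction. A gene is described as called, risen or fallen where the adjusted p-value of edgeR's quasi-likelihood test was under 0.05. The median log2 fold change of the 10 was 0.24, against 0 over all genes tested. In 9 of the 10 genes both treated NeuT libraries lay above both untreated ones, which held for 21.9% of all tested genes. Because the 10 genes were chosen with earlier results of these data known, these shares and medians do not test them as a set.

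MAP1LC3B (ENSG00000140941, chromosome 16, 87383953 to 87404779, plus strand, GRCh38) encodes an ATG8 protein that both lengthens the autophagic membrane and docks receptors. It was at 182.7 and 176.7 CPM in the untreated NeuT libraries and at 252 and 283 CPM in the treated ones. The groups did not overlap. The mean went from 179.7 ± 4.3 to 267.6 ± 22 CPM (SD, n = 2 each), a log2 fold change of 0.57 (SE 0.067) or 1.49-fold, with an edgeR adjusted p-value of 1.0e-04. This was the call that passed in 17 of 17 alternative settings. A copy of this gene on another chromosome, MAP1LC3B2, shares 97.3% identity with it over 601 aligned bases and had 12.4% as many counts, so reads of the pair may have been split. MAP1LC3B2 also rose in NeuT, from 21.7 and 24.2 CPM to 27.8 and 36.0 CPM (log2 fold change 0.48, SE 0.11; adjusted p = 0.0237 by edgeR). That call was lost in 4 of 17 settings, with adjusted p-values up to 0.264: with only the 4 libraries compared, and without NeuT untreated replicate 1, NeuT untreated replicate 2 or NeuT treated replicate 2. How the authors treated reads with several matches is not given in the sources used here.

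GABARAPL1 (ENSG00000139112, chromosome 12, 10212458 to 10223128, plus strand) encodes an ATG8 protein of the GABARAP branch. Its untreated NeuT libraries had 23.2 and 21.0 CPM and its treated ones 30.1 and 30.7 CPM. The treated replicates were close to each other and well above the untreated pair. The log2 fold change was 0.46 (SE 0.079; adjusted p = 0.0032 by edgeR). It was 0.38 without NeuT untreated replicate 2, where it did not pass (adjusted p-value 0.136), and it passed in the other 16 settings. GABARAPL2 (ENSG00000034713, chromosome 16, 75566375 to 75577881), of the same branch, was at 73.6 and 74.7 CPM untreated and 75.6 and 65.8 CPM treated. Its groups overlapped, and its log2 fold change of -0.07 had a 95% interval from -0.21 to 0.07 (adjusted p = 0.686 by edgeR).

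ULK1 (ENSG00000177169, chromosome 12, 131894622 to 131923150, plus strand) went from 41.5 and 42.0 CPM in untreated NeuT to 52.5 and 65.9 CPM in treated NeuT. Both treated libraries were higher, and they stood further apart than the untreated ones. The log2 fold change was 0.50 (SE 0.098; adjusted p = 0.0123 by edgeR). Without NeuT treated replicate 2 it was 0.32 and still passed (0.0386), and without NeuT untreated replicate 1 or 2 it was 0.49 or 0.51 and did not (0.133 and 0.147). WIPI1 (ENSG00000070540, chromosome 17, 68420948 to 68457513, minus strand) went from 13.9 and 13.3 CPM to 16.3 and 21.2 CPM. Its second treated library was the higher, and its log2 fold change was 0.46 (SE 0.11; adjusted p = 0.0288 by edgeR). That value dropped to 0.25 without NeuT treated replicate 2, with an adjusted p-value of 0.308. The call was lost in 9 of 17 settings, over which adjusted p-values ran from 8.4e-05 to 0.310. Exons of ARSG and another gene cover 28.1% of the exonic bases of WIPI1, and these genes together had 16.1% as many counts.

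SQSTM1 (ENSG00000161011, chromosome 5, 179806398 to 179838078, plus strand) was at 409 and 404 CPM in untreated NeuT and at 451 and 520 CPM in treated NeuT. The groups did not overlap. The log2 fold change was 0.26 (SE 0.064), or 1.20-fold, with an edgeR adjusted p-value of 0.0341. Without NeuT treated replicate 2 it was 0.14 (adjusted p-value 0.200), and the call was lost in 7 of 17 settings, with adjusted p-values from 2.4e-05 to 0.355. The table's exons for SQSTM1 share 22.4% of their bases with MGAT4B and MRNIP, which together had 95.2% as many counts as SQSTM1. MGAT4B itself had a log2 fold change of 0.01 in NeuT (adjusted p = 0.951 by edgeR) and -0.04 in Empty (0.873). MRNIP, which shares a stretch of 803 identical bases with SQSTM1 and had 2.36% as many counts, was at 0.19 in NeuT (adjusted p = 0.566 by edgeR) and -0.22 in Empty (0.651).

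The other 3 receptors had positive values in NeuT and were not called. NBR1, which resembles SQSTM1 in domain structure, was at 118 and 114 CPM untreated and 131 and 140 CPM treated (log2 fold change 0.22, SE 0.060; adjusted p = 0.0555 by edgeR). It passed with DESeq2 (0.0314), without the filter on low counts (0.0179), with the replicate number as a block (0.0451) and without NeuT treated replicate 1 (0.00376). OPTN, a receptor for damaged mitochondria and bacteria, was at 93.5 and 89.3 CPM untreated and 95.9 and 110 CPM treated. Its log2 fold change was 0.17 (SE 0.075; adjusted p = 0.270 by edgeR). Without NeuT treated replicate 1 it was 0.27 and passed (0.0119), and without replicate 2 it was 0.06 (0.825). TAX1BP1, a receptor for protein aggregates, had a log2 fold change of 0.16 (SE 0.057; adjusted p = 0.177 by edgeR), and passed in 1 of 17 settings, without NeuT treated replicate 1 (0.0422). TFEB had 14.4 and 13.7 CPM untreated and 14.8 and 15.1 CPM treated, a log2 fold change of 0.09 with a 95% interval from -0.10 to 0.28 (adjusted p = 0.703 by edgeR).

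In Empty cells none of the 10 genes was called at the same dose and time, where 0.339% of all tested genes were. At an unadjusted p-value under 0.05 there were 2, MAP1LC3B and OPTN, and 9.83% of all tested genes passed at that threshold. DESeq2 and limma-voom also called 0 of the 10, where they called 0.853% and 0.249% of all tested genes. MAP1LC3B was at 145 and 141 CPM untreated and 181 and 160 CPM treated, so the groups did not overlap. Its log2 fold change was 0.25 (SE 0.067; adjusted p = 0.159 by edgeR), with a 95% interval from 0.11 to 0.39. It passed when only the 4 Empty libraries were fitted (0.0362), without the filter on low counts (0.0113), and without NeuT treated replicate 1 (0.0049) or 2 (0.00505), and in none of the other 12 of 16 settings. It was 0.16 without Empty treated replicate 1 (adjusted p-value 0.812) and 0.34 without replicate 2 (0.104), and without untreated Empty replicate 1 or 2 the adjusted p-value was 0.565 or 0.790. OPTN was at 57.9 and 56.2 CPM untreated and 70.6 and 61.3 CPM treated (log2 fold change 0.21, SE 0.077; adjusted p = 0.341 by edgeR). It passed in 0 of 16 settings, and was 0.10 without Empty treated replicate 1 and 0.31 without replicate 2. SQSTM1 was at 288 and 279 CPM untreated and 277 and 297 CPM treated, and these overlapped. Its log2 fold change of 0.02 had a 95% interval from -0.12 to 0.15. ULK1 (0.03), TFEB (0.03), GABARAPL2 (0.02), NBR1 (0.05) and TAX1BP1 (0.05) had log2 fold changes of similar size, and WIPI1 (0.10) and GABARAPL1 (0.11) slightly larger ones. The treated libraries lay above the untreated ones without overlap for 4 of the 10, against 20.9% of all tested genes.

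**Figure D2:**
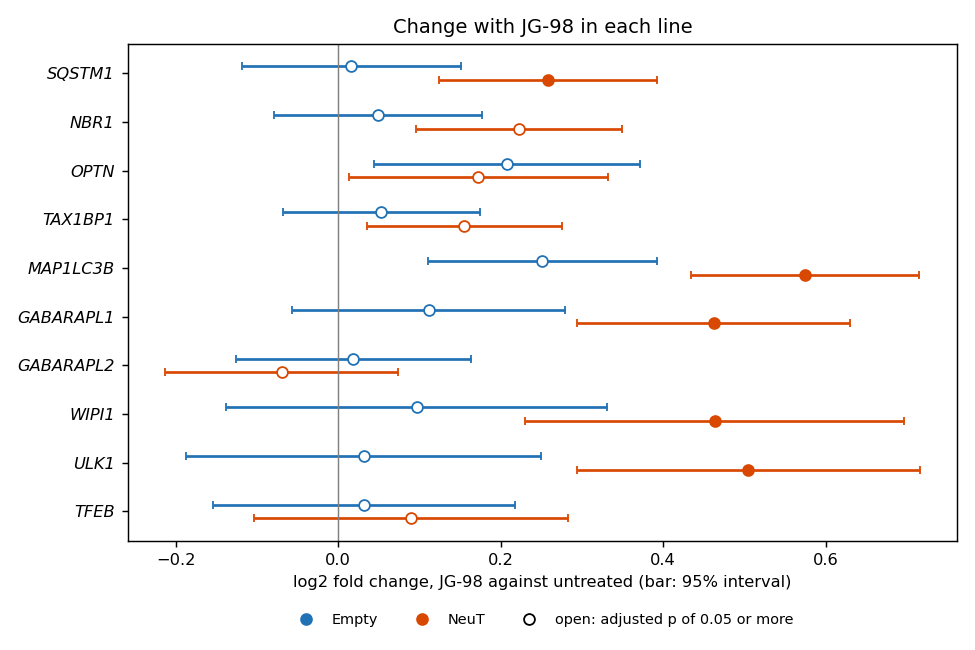
Log2 fold change with JG-98 for each gene in Empty (blue) and NeuT (orange), with 95% intervals from edgeR; filled points passed an adjusted p-value of 0.05. The 5 filled points are all NeuT, from 0.26 for SQSTM1 to 0.57 for MAP1LC3B.

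The difference between the lines in their response was tested as the interaction of line and drug. None of the 10 genes passed, and across all tested genes 0.00565% did. At an unadjusted p-value under 0.05 there were 5, with larger changes in NeuT: ULK1, WIPI1, GABARAPL1, MAP1LC3B and SQSTM1. At that threshold 7.79% of all tested genes passed. DESeq2 and limma-voom called 0 of the 10 in the interaction, where they called 0.147% and 0.00565% of all tested genes. The interaction was 0.47 for ULK1 (SE 0.14; adjusted p = 0.491 by edgeR), 0.37 for WIPI1 (SE 0.16; 0.599) and 0.35 for GABARAPL1 (SE 0.11; 0.509). It was 0.32 for MAP1LC3B (SE 0.094; adjusted p = 0.490 by edgeR) and 0.24 for SQSTM1 (SE 0.090; 0.556). For OPTN it was -0.04, with a 95% interval from -0.26 to 0.19. A difference in response between the lines was therefore not shown for any of these genes. Without NeuT treated replicate 1 the interaction passed for 4 of them (not GABARAPL1), and without the filter on low counts for 2, MAP1LC3B and ULK1. Over all genes, the share called in the interaction was then 4.16% and 0.432%, so calls were added across the table and not only among these genes. Without NeuT treated replicate 2 the interaction was 0.12 for SQSTM1, 0.15 for WIPI1, 0.29 for ULK1, 0.23 for MAP1LC3B and 0.32 for GABARAPL1, with adjusted p-values of 0.518 to 0.881. Over all 15 settings the adjusted p-values of these 5 genes reached 0.966.

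The 2 treated NeuT libraries contributed unequally. In 10 of the 10 genes, replicate 2 lay further from the mean of the untreated NeuT libraries than replicate 1, which was so for 60.8% of all tested genes and for 89.3% of the 533 genes called in NeuT. SQSTM1 lay above that mean by 0.15 in replicate 1 and 0.36 in replicate 2 on the log2 scale, and WIPI1 by 0.26 and 0.64. GABARAPL1 was nearly equal in the pair, at 0.45 and 0.48. GABARAPL2 was at 0.03 and -0.17, the only one of the 10 below the untreated mean in either treated NeuT library. In Empty, replicate 2 lay further out for 5 of the 10, for 41.4% of all tested genes and for 30% of the 60 genes called there. Without NeuT treated replicate 1, 8 of the 10 genes were called in NeuT, where 11.4% of all tested genes were, against 3.01% with all libraries. Without replicate 2, 3 were called (MAP1LC3B, GABARAPL1 and ULK1), against 1.96% of all genes. Leaving out NeuT untreated replicate 2 left 1 call, MAP1LC3B (0.766% of all genes), and leaving out NeuT untreated replicate 1 left 2 (0.706%). Leaving out untreated Empty replicate 1 or 2 left 3 (1.84% and 1.85% of all genes), and leaving out treated Empty replicate 1 or 2 left 4 (2.4% and 2.38%). Each of these shares lay on the same side of 3.01% as the count of these genes lay of 5.

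**Figure D3:**
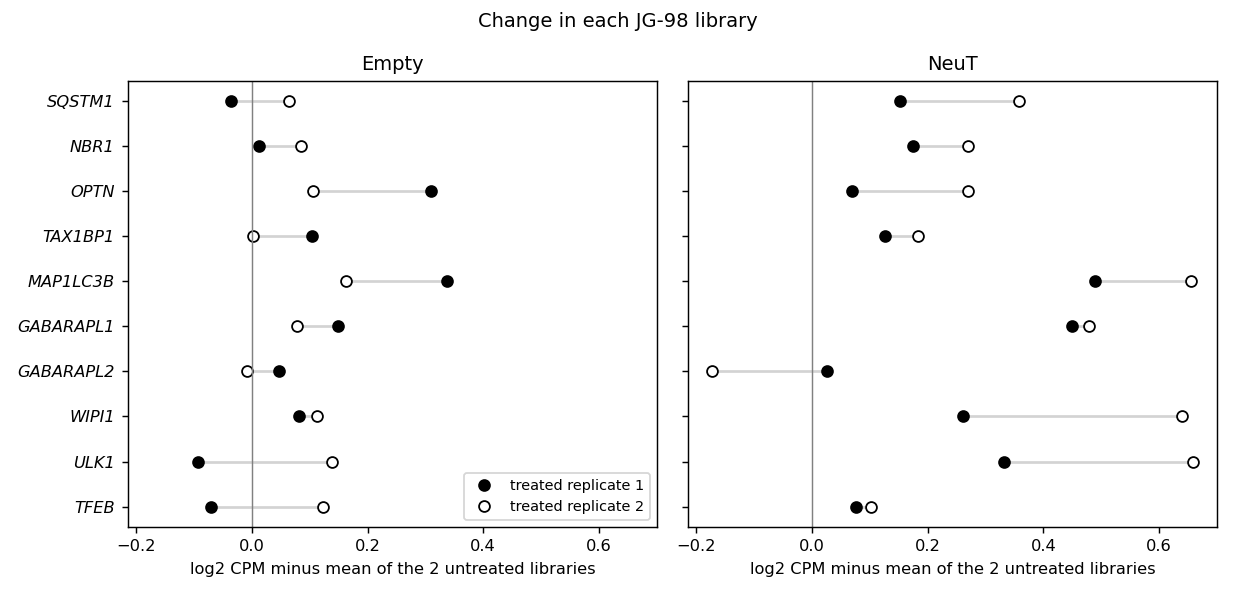
Log2 CPM of each treated library minus the mean of the 2 untreated libraries of its line, for Empty (left) and NeuT (right); filled points are treated replicate 1, open points treated replicate 2. In NeuT every open point lies further from 0 than its filled partner, with SQSTM1 at 0.15 and 0.36.

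The drug comparisons were also read for other genes of the same process. Of 92 tested genes in 5 wider lists (94 named), 3 rose and 1 fell in NeuT, where 3.01% of all genes were called, and 0 rose and 1 fell in Empty, where 0.339% were. These shares were not tested against each other. RB1CC1, which encodes the ULK1 partner FIP200, rose in NeuT from 50.6 and 50.1 CPM to 64.0 and 76.6 CPM. Its log2 fold change was 0.48 (SE 0.075; adjusted p = 0.00148 by edgeR), and it passed in 16 of 17 settings, not without NeuT untreated replicate 2 (0.0579). In Empty RB1CC1 was at -0.05 (adjusted p = 0.878 by edgeR), and its interaction of 0.54 was not called (0.154). Before treatment RB1CC1 was lower in NeuT than in Empty, by a log2 difference of -0.39 (SE 0.075; adjusted p = 0.00043 by edgeR). Under JG-98 its difference of 0.14 between the lines was not called (adjusted p = 0.148 by edgeR). CALCOCO2, the receptor NDP52, passed narrowly in NeuT (0.24, SE 0.062; adjusted p = 0.04995 by edgeR) and failed in 13 of 17 settings. BNIP3, a mitochondrial receptor that binds ATG8 proteins directly, fell in both lines. It went from 59.4 and 62.1 to 47.5 and 46.3 CPM in Empty (-0.37, SE 0.076; adjusted p = 0.0468 by edgeR) and from 150 and 151 to 132 and 109 CPM in NeuT (-0.32, SE 0.073; 0.0239). The first of these calls was lost in 9 of 16 settings and the second in 6 of 17. MAP1LC3B2, described above, was the third gene that rose.

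By list, 1 of 18 tested genes for other cargo receptors rose and 1 fell in NeuT. There 1 of 14 tested genes for the other ATG8 proteins and their conjugation enzymes rose, and 1 of 21 for initiation and membrane supply. None of 13 genes for fusion with the lysosome and none of 26 for the TFEB family and the lysosome was called in either line. At an unadjusted p-value under 0.05 there were 2 of 13 and 4 of 26 in NeuT, where 16% of all tested genes passed. The median log2 fold change in NeuT was -0.04 for the other cargo receptors, of which 8 of 18 had positive values, 0.04 for the ATG8 and conjugation list, 0.07 for initiation, 0.08 for fusion and 0.03 for the TFEB and lysosome list, against 0.24 for the 10 genes. TFE3, a relative of TFEB, was at 0.16 (adjusted p = 0.439 by edgeR). The lists and the 10 genes were chosen with earlier results of these data known, and their medians were not tested against each other.

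**Figure D4:**
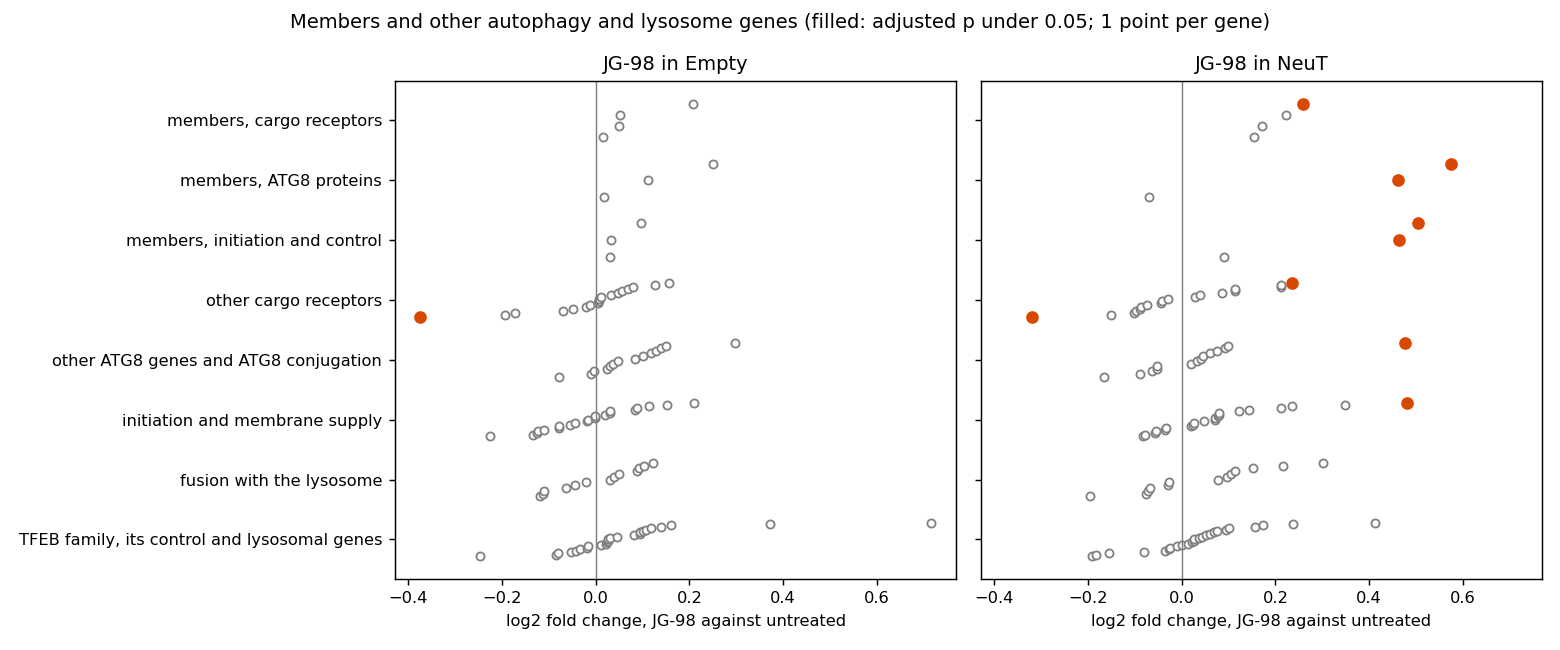
Log2 fold change with JG-98 in Empty (left) and NeuT (right) for the 10 genes (top 3 rows) and for genes of the wider lists (1 point per gene); filled points passed an adjusted p-value of 0.05. Filled points number 1 in Empty, BNIP3, and 9 in NeuT.

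Before treatment, NeuT cells had higher levels of all 4 receptor genes, of MAP1LC3B, GABARAPL2 and ULK1, and lower levels of TFEB and GABARAPL1. Of the 10 genes, 7 were called higher and 2 lower, where 21.2% and 20.8% of all tested genes were, or 42% in either direction. OPTN (ENSG00000123240, chromosome 10, 13099449 to 13138308) differed most among the receptors, with 57.9 and 56.2 CPM in Empty and 93.5 and 89.3 CPM in NeuT. The log2 difference was 0.68 (SE 0.077; adjusted p = 1.9e-06 by edgeR). SQSTM1 was higher by 0.52 (SE 0.064; adjusted p = 4.7e-06 by edgeR), with 288 and 279 CPM in Empty and 409 and 404 CPM in NeuT. NBR1 differed by 0.30 (SE 0.060; adjusted p = 0.00062 by edgeR) and TAX1BP1 by 0.16 (SE 0.057; 0.0339). For these 4 receptors the NeuT libraries lay above the Empty ones without overlap, which held for 36.1% of all tested genes.

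TFEB (ENSG00000112561, chromosome 6, 41683978 to 41736259, minus strand) went the other way. It had 23.6 and 22.2 CPM in Empty and 14.4 and 13.7 CPM in NeuT, a log2 difference of -0.70 (SE 0.090; adjusted p = 6.8e-06 by edgeR). All 4 NeuT libraries, treated or not, were below all 4 Empty ones. MITF, another member of the TFEB family, was also lower in NeuT (-0.61, SE 0.069; adjusted p = 1.6e-06 by edgeR), while TFE3 was higher (0.34, SE 0.091; 0.0079). MAP1LC3B differed by 0.33 (SE 0.067; adjusted p = 0.0007 by edgeR) and ULK1 by 0.42 (SE 0.10; 0.00368). GABARAPL2 was higher by 0.22 (adjusted p = 0.0147 by edgeR) and GABARAPL1 lower by a log2 difference of -0.22 (0.0385), so this pair differed in opposite directions. GABARAP itself was not called (0.59, SE 0.37; adjusted p = 0.221 by edgeR). The direction of each of the 10 was the same under TMM, RLE and total-count scaling. TAX1BP1 (0.09, adjusted p-value 0.221) and GABARAPL2 (0.15, 0.0907) did not pass with total counts, and GABARAPL1 did not pass with DESeq2 (-0.21, 0.0690). None of these 3 passed when any of the 4 untreated libraries was left out. WIPI1 was not called (-0.17, SE 0.11; adjusted p = 0.230 by edgeR).

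Under JG-98, 6 of the 10 genes were higher in NeuT than in Empty and 1, TFEB, was lower, where 21.7% of all tested genes were called higher, 20% lower and 41.7% in either direction. ULK1 had the largest difference, 0.89 (SE 0.10; adjusted p = 4.6e-06 by edgeR), with 29.3 and 34.4 CPM in treated Empty and 52.5 and 65.9 CPM in treated NeuT. SQSTM1 differed by 0.76 (SE 0.064; adjusted p = 4.8e-08 by edgeR) and MAP1LC3B by 0.65 (SE 0.067; 5.1e-07). OPTN (0.65), NBR1 (0.47) and TAX1BP1 (0.26) were also called, and TFEB was lower by a log2 difference of -0.65 (SE 0.090; adjusted p = 1.7e-05 by edgeR). GABARAPL1, lower in untreated NeuT, was at 0.14 under the drug and was not called (adjusted p = 0.191 by edgeR). GABARAPL2 (0.13, adjusted p = 0.136 by edgeR) and WIPI1 (0.19, 0.179) were not called either. These values share their libraries with the comparisons within each line. With total counts in place of TMM, 41.0% of all calls in this comparison were higher in NeuT, against 52.0%, and the 10 genes kept 6 higher and 1 lower.

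**Figure D5:**
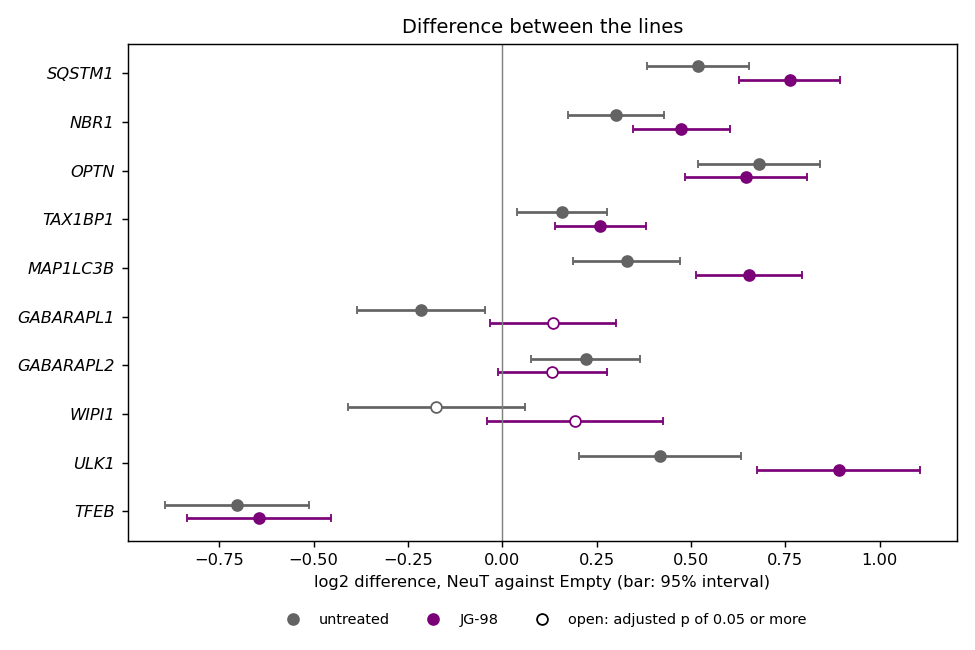
Log2 difference between NeuT and Empty for each gene without drug (grey) and under JG-98 (purple), with 95% intervals from edgeR; filled points passed an adjusted p-value of 0.05. TFEB lies at -0.70 and -0.65 while the 4 receptors lie from 0.16 to 0.76.

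The wider lists differed between lines as well. Without drug, 44 of 92 genes were higher in NeuT and 9 lower, where 21.2% and 20.8% of all tested genes were. The counts of higher and lower genes were 12 and 1 of 21 for initiation and membrane supply, 8 and 0 of 13 for fusion with the lysosome, and 13 and 5 of 26 for the TFEB family and the lysosome. They were 7 and 2 of 18 for the other cargo receptors and 4 and 1 of 14 for the other ATG8 and conjugation genes. The median log2 difference over the 92 genes was 0.19, against -0.02 over all genes. With total counts there were 35 higher and 14 lower, and 6 and 3 for the initiation list, and the share of all calls that were higher in NeuT went from 50.5% to 40.7%. The largest positive differences were those of the mitochondrial receptors BNIP3 (1.31, SE 0.075) and BNIP3L (1.20, SE 0.058) and of GAA (1.15, SE 0.093), the lysosomal enzyme that breaks down glycogen. The largest negative differences were those of MITF, RTN3 (-0.50, SE 0.053), a receptor for tubules of the endoplasmic reticulum, and GLA (-0.47, SE 0.070), the lysosomal alpha-galactosidase. All 6 had edgeR adjusted p-values of at most 3.2e-05. Under JG-98 the counts were 43 higher and 10 lower, where 21.7% and 20% of all tested genes were, and 38 and 13 with total counts. CTSB, the lysosomal protease cathepsin B, then replaced GAA among the 3 largest positive differences (1.09, SE 0.051), beside BNIP3 (1.37) and BNIP3L (1.35), and the negative ones were led by GLA (-0.74), MITF (-0.53) and RTN3 (-0.45).

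The genes whose pattern over the 8 libraries was most like that of a member were found by Pearson's r of log2 CPM, with the mean of each line removed, among 9181 genes with a mean of at least 10 CPM. For SQSTM1 they were OSMR (r = 0.989), SLC38A1 (0.986) and RNF44 (0.985). Their log2 fold changes in NeuT were 0.23, 0.35 and 0.21, and only that of SLC38A1 was called (adjusted p = 0.0106 by edgeR). For MAP1LC3B they were WARS1 (r = 0.998), LINC00662 (0.997) and FHL2 (0.996), with log2 fold changes in NeuT of 0.47, 0.58 and 0.25, all called (edgeR adjusted p-values 0.00063, 0.00097 and 0.0254). Within the 10, SQSTM1 and WIPI1 were closest (r = 0.970), followed by SQSTM1 and ULK1 (0.966). GABARAPL2 and ULK1 were furthest apart (-0.794). These coefficients describe 8 libraries that share the drug and the 2 treated NeuT libraries described above.

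In the authors' deposited table for NeuT, 5 of the 10 genes had an adjusted p-value under 0.05, the same 5 as here, and 525 of 17698 genes in all (2.97%) did. Of these, MAP1LC3B had a log2 fold change of 0.57 (adjusted p-value 0.00058) and SQSTM1 one of 0.26 (0.0382) in the authors' deposited table. In the authors' deposited table for Empty, 0 of the 10 and 48 of 17698 genes in all (0.271%) did, and MAP1LC3B had a log2 fold change of 0.28 (adjusted p-value 0.185).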

How the data were processed

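RNA was measured in 8 libraries, placed in 4 groups of 2 by their titles. The authors deposited raw counts per gene in the layout of featureCounts, per the file headers, and 0 columns of per-sample values matched no sample. The submitters' processing notes name Trim Galore 0.5.0, FastQC 0.11.7, HISAT2 2.1.0, SAMtools 1.9, featureCounts 1.6.3, limma and the build GRCh38. Strandedness and the treatment of multi-mapping reads and overlapping genes are not given in the sources used here. The authors also deposited 1 table per line of log2 fold changes, p-values and test scores, per the file headers.

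Counts were analysed in R 4.3.3 with edgeR 4.0.16: filterByExpr (minimum count 10, total 15), TMM scaling, and 1 robust quasi-likelihood fit of 4 group means over 8 libraries. Each of 5 contrasts had its p-values adjusted (Benjamini-Hochberg) over 17693 genes, and the scripts were tested on simulated data. A standard error is the log2 change over the root of its F statistic. Log2 CPM used a prior count of 2. Library totals were 37341458 to 56861971. A count of 0 allows up to 3 counts, at most 0.0787 CPM, counting error only. With 2 libraries a group, an exact permutation test of 1 gene cannot reach 0.05.

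The 10 genes and the wider lists were chosen with earlier results of these data known, and no list was tested as a set. All 10 are named whatever they show. Of the wider lists, every gene called with JG-98 was named, and between lines the 3 called genes furthest in each direction (mean count 50 or more). Symbols came from a table that held 60261 of 60617 identifiers. Near-identical transcripts were searched in GENCODE transcripts, and coordinates are those of the deposited table, 1-based. Alternatives were RLE factors, total counts, no filter, DESeq2 1.42.0, limma-voom (limma 3.58.1), no robust estimation, a replicate block, only the 4 libraries compared, and each library left out. In the wider lists, 1 gene is counted but is not reported here or plotted. TFE3, MAP1LC3B2, GABARAP and the line differences of RB1CC1, beyond these rules, and the cyclic AMP response element, were chosen after values or sequences were seen.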

Additional observations from a re-analysis of the deposited data

How the results depend on the processing

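With 2 libraries a group, calls near the threshold turned on single libraries, as given with each gene, and precision rests on the spread shared across genes. The number of the 10 genes called with JG-98 in NeuT was 5, and 3 with only the 4 libraries compared (1.11% of all genes called). It was 6 with DESeq2 (4.08% of all genes called) and without the filter (3.13%), NBR1 being added in both, and 4 with limma-voom (2.85%), where WIPI1 was lost. Leaving out 1 library at a time gave 1 to 8. In Empty the number was 0, and 1 with only the 4 libraries compared (1.22% of all genes called) and without the filter on low counts (0.882%). For the interaction it was 0, 2 without the filter, and 0 to 4 over libraries left out. Between lines it was 9 without drug and 7 under JG-98 (7 to 8 over libraries left out, with 31.9% to 39.7% of all genes called). Without drug it was 6 to 9 over libraries left out, and the 4 libraries that gave 6 took the share of all genes from 42% to between 29.3% and 29.9%. The cause of these shifts was not tested. Over all genes, 533 calls in NeuT became 1000 without the filter, 185 with 4 libraries and 132 to 2133 with a library left out. In Empty, 60 became 282 without the filter, 151 with DESeq2, 205 with 4 libraries and 9 to 417. In the interaction, 1 became 138 without the filter, 26 with DESeq2, 3 without robust estimation, 2 with total counts and 1 to 777.

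Signs turned only with a library left out, in 13 of 800 values for single genes, none of them called, with adjusted p-values of at least 0.815. In Empty the ranges were -0.0371 to 0.0643 for SQSTM1, -0.0094 to 0.0457 for GABARAPL2, -0.0947 to 0.1372 for ULK1 and -0.0733 to 0.1219 for TFEB. In NeuT GABARAPL2 ran from -0.1752 to 0.0185, in the interaction OPTN from -0.1507 to 0.0676 and TFEB from -0.0322 to 0.1634, and between lines under JG-98 WIPI1 from -0.0083 to 0.38.

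Replicate numbers were checked as a pairing. Differences between replicates correlated between groups with r from -0.101 to 0.244, the highest being that of treated Empty and treated NeuT. The libraries were treated as unpaired because the labels number the replicates but name no shared batch, day or culture. With the replicate number as a block, 6 of the 10 genes were called in NeuT (NBR1 added; 3.35% of all genes), 0 in Empty (0.373%), 0 in the interaction (0.00565%), and 9 and 7 between lines (42.4% and 42.1%). Crossing the numbers of the treated NeuT libraries, a setting chosen after seeing the data, gave 4 in NeuT (2.57% of all genes).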
